A study of Mus musculus with 20 samples.

Results

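Genes of neurosteroid and estrogen metabolism were followed in the preoptic area (POA) of adult male mice, namely Star, Tspo, Cyp11a1, Srd5a1, Akr1c14, Hsd17b1, Cyp19a1, Cyp1b1, Cyp2d22 and Cyp2d26. They were taken by symbol, and all 10 were rows of a deposited table of 25239 genes. The POA was dissected from 20 males, 5 in each of 4 groups, and its total RNA was measured by bulk RNA-seq. The groups crossed genotype (control or dnFGFR) with the sex of a cage partner, which was male in same-sex (SS) and female in opposite-sex (OS) housing. Cohabitation lasted from postnatal day (PND) 20 until tissue was taken at PND320. dnFGFR males were homozygous for a transgene encoding an FGF receptor 1 without its kinase domain, driven by a rat GnRH promoter in GnRH neurons, which are only a small part of the tissue sequenced. Controls shared the strain background of the transgenic line, from which they were bred. OS males bred freely and lived with their pups, so a female partner, mating and pups cannot be told apart within OS housing.

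Neurosteroids are steroids that act in the brain and are in part made there. Cholesterol is carried into mitochondria, cut to pregnenolone, and turned by later enzymes into progestins, androgens and estrogens, or into reduced steroids such as allopregnanolone that act on GABA-A receptors. In the male POA, testosterone is converted to estradiol by aromatase, and estradiol formed locally is known to act on sexual behavior and on the feedback that controls GnRH neurons.

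Of the 10 members, 9 were tested and 0 differed between housing groups or genotypes past the threshold, an adjusted p under 0.1 in edgeR's quasi-likelihood test with Benjamini-Hochberg adjustment over all genes tested. Of all genes tested, 0.124% passed for housing in control mice and 0% for housing in dnFGFR mice. For the difference in housing response between genotypes 0% passed, and for genotype 1.33%. Transcripts of the enzymes ranged from Cyp2d22, with 1027 or more reads in every mouse, to Cyp2d26, with 0 to 14 reads. Cyp19a1, which encodes aromatase, was the one member for which groups were found not to overlap. All 5 dnFGFR OS mice had a higher level of it relative to library size than all 5 dnFGFR SS mice, and all 5 lay above all 5 control OS mice, at 6 to 37 reads per mouse over the study. In raw reads, the lowest dnFGFR OS and the highest dnFGFR SS mouse both had 26. The share of all 17445 genes examined whose groups did not overlap was 1.42% for the first pair and 1.52% for the second.

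Upstream sequence is shown for Cyp19a1, because its count sums over transcripts from several listed starts, and for Cyp1b1, the textbook target of the aryl hydrocarbon receptor (AHR) among the members. RefSeq's table of start windows on GRCm38.p6 lists starts for 6 of the 10 members, with 3 for Cyp19a1 and 1 for Cyp1b1. The 250 bases before each start are printed in the gene's own direction, and capitals mark matches to 3 short motifs on either strand. The first motif was GCGTG, the core bound by AHR with its partner ARNT. The second was the nuclear receptor half-site AGGTCA. The last was the TATA box, searched as TATAAA.
Cyp19a1 start 1, chr9:54268165-54268414, minus strand: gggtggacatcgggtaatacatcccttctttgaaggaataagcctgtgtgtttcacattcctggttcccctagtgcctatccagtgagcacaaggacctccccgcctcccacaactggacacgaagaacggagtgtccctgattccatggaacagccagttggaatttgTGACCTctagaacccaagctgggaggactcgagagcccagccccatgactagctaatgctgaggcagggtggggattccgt
Cyp19a1 start 2, chr9:54228915-54229164, minus strand: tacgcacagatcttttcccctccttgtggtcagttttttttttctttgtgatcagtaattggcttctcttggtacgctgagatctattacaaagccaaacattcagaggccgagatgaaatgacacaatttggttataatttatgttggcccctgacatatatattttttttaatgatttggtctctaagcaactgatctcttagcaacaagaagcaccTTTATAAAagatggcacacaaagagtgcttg
Cyp19a1 start 3, chr9:54193744-54193993, minus strand: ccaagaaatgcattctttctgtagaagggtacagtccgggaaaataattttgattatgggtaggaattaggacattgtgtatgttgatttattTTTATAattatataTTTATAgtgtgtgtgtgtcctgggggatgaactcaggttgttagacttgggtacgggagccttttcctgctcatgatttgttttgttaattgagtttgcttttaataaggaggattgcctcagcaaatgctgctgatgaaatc
Cyp1b1 start, chr17:79715062-79715311, minus strand: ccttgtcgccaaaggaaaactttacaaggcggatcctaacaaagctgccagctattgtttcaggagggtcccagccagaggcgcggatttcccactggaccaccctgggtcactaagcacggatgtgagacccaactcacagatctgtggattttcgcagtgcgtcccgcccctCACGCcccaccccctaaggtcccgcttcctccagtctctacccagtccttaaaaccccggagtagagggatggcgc

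The windows before the Cyp19a1 starts differed in composition. G and C made up 54.4% of the 250 bases before start 1, 37.2% before start 2 and 36.8% before start 3. Start 1 had the reverse complement of AGGTCA beginning at -81. Start 2 had TATAAA at -29, overlapping its own reverse complement at -31, and start 3 had the reverse complement of TATAAA at -157 and at -143. The Cyp1b1 window had 1 reverse-strand match to GCGTG, at -76. Such matches are common, since the AHR core was found in 32.4%, the half-site in 16.3% and the TATA box in 13.6% of 32851 start windows of 300 bases in the same table. The deposited value is 1 count per gene, so which Cyp19a1 start was used in these mice cannot be read from it. A long non-coding gene, Gm51676 (chromosome 9, 54263626 to 54269312), spans start 1 in RefSeq and was not a row of the table.

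Counted reads per mouse ranged from 32353578 to 39871353, and 22187 genes of the table had reads. All 10 genes of the list of POA and hypothalamic markers were in the table, 8 of them at a mean of at least 1 CPM (counts per 1000000 counted reads, with TMM-scaled library sizes, which correct for differences in library composition). In a principal component analysis of 17445 genes, dnFGFR OS replicate 5 stood apart on the first component, which held 16.2% of the variance, and values without this mouse are given where they bear on a result. Choroid plexus markers varied over the mice, with summed levels from 42.0 to 2243 CPM. In control mice their median summed level was 142.1 CPM with SS and 1468 CPM with OS housing, and 5 of the 8 had an unadjusted p under 0.05, with 0 called and a median log2 fold change of 1.43 (edgeR). Genotype and date of sacrifice cannot be told apart. Days of sacrifice with both housings held 2 of 5 SS and 5 of 5 OS control mice, and 2 of 5 SS and 4 of 5 OS dnFGFR mice. For the remaining mice, housing and date cannot be told apart either.

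**Figure D1:**
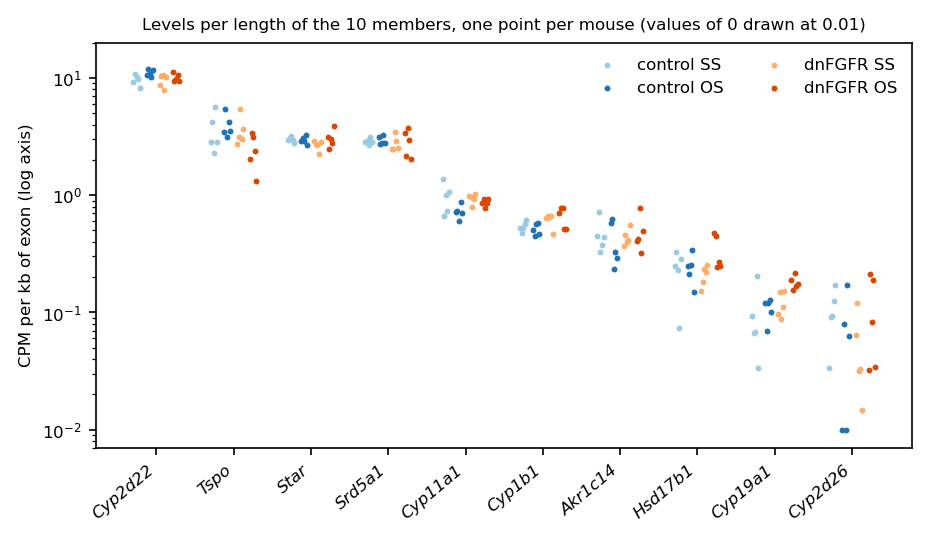
Level of each of the 10 genes in each of the 20 mice, in CPM per kb of exon on a log axis, with colors for the 4 groups and values of 0 drawn at the bottom at 0.01. Cyp2d22 lies above the other members in all 20 mice, and Cyp19a1, Hsd17b1 and Cyp2d26 lie lowest.

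Levels of the members were ranked per length, as CPM per kb of annotated exon. On this scale Cyp2d22 was highest, with a mean of 10.04 ± 1.05 (SD, n = 20 mice), and lay above the next gene in all 20 mice. Tspo had a mean of 3.39 ± 1.13, Star 2.92 ± 0.332 and Srd5a1 2.86 ± 0.424 CPM per kb. These 3 genes did not keep an order, since Tspo was above Star in 14 and Star above Srd5a1 in 11 of the 20 mice.

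A step down the list, Srd5a1 was above Cyp11a1 (mean 0.878 CPM per kb) in all 20 mice, and Cyp11a1 was above Cyp1b1 (mean 0.581) in all 20. Akr1c14 (0.448), Hsd17b1 (0.255), Cyp19a1 (0.125) and Cyp2d26 (0.0821) followed. Neighbors in this lower range crossed in some mice, with Cyp1b1 above Akr1c14 in 15, Akr1c14 above Hsd17b1 in 16, Hsd17b1 above Cyp19a1 in 19 and Cyp19a1 above Cyp2d26 in 13 of 20. The length taken for Cyp19a1 was 4522 bases of exon from all its transcripts, while its longest transcript has 2451. Both lengths of Hsd17b1 are 1339 bases. In reads, Cyp19a1 had 400 and Hsd17b1 241 over the 20 mice. The order of these genes per length of transcript was not tested. In all, 9 members passed edgeR's filter on low counts, and Cyp2d26 did not.

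For the supply of cholesterol to the mitochondrion, the RNA of Star and Tspo was measured. Star (chromosome 8, 25808474 to 25815982, plus strand) encodes the steroidogenic acute regulatory protein, which moves cholesterol to the inner mitochondrial membrane. Star had 407, 456, 473, 484 and 446 reads in control SS mice, 396, 440, 418, 443 and 387 in control OS mice, 410, 416, 389, 310 and 445 in dnFGFR SS mice, and 439, 372, 415, 407 and 524 in dnFGFR OS mice. The highest value was in dnFGFR OS replicate 5 and the lowest in dnFGFR SS replicate 4, and all pairs of groups overlapped.

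Relative to library size, Star averaged 12.3 CPM in control SS, 12.2 in control OS, 11.0 in dnFGFR SS and 12.5 in dnFGFR OS mice. The fitted log2 difference (log2 fold change, OS over SS housing) was -0.01 (SE 0.0785) in controls and 0.18 (SE 0.126) in dnFGFR mice. The value in dnFGFR mice was 0.08 without dnFGFR OS replicate 5, which had 524 reads of Star. That mouse also had the highest summed level of the astrocyte marker list, 5353 CPM against 3417 to 4290 in the other dnFGFR OS mice, and the part of this in the Star value was not tested.

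Tspo (chromosome 15, 83563573 to 83574203, plus strand) encodes the translocator protein of the outer mitochondrial membrane, known in brain as a marker of glial activation. Tspo had 99, 160, 87, 239 and 118 reads in control SS mice, 119, 198, 116, 146 and 131 in control OS mice, 99, 122, 202, 106 and 147 in dnFGFR SS mice, and 73, 131, 112, 90 and 45 in dnFGFR OS mice. The lowest count was in dnFGFR OS replicate 5, and the dnFGFR OS range overlapped that of each other group.

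The mean level of Tspo was 2.58 CPM in dnFGFR OS mice and 3.78 in dnFGFR SS mice, a fitted log2 difference of -0.55 (95% interval -1.118 to 0.02, adjusted p = 0.726, edgeR). It was -0.39 without dnFGFR OS replicate 5, -0.35 without dnFGFR SS replicate 3, which had 202 reads, and -0.39 after removal of the trend that each library showed on GC content and length of genes. In control mice the means were 3.75 CPM with SS and 4.14 CPM with OS housing, a fitted log2 difference of 0.14 (SE 0.230) that was 0.37 without control SS replicate 4 and 0.004 without control OS replicate 2. The difference between the responses of the genotypes was -0.69 (SE 0.370, adjusted p = 0.963, edgeR), the most negative interaction among the members tested. The summed level of 6 microglial markers was 317.8 to 355.8 CPM in dnFGFR SS and 336.4 to 411.7 CPM in dnFGFR OS mice. Control SS replicate 4, control OS replicate 2 and dnFGFR SS replicate 3 had the highest choroid plexus sums of their groups, 1120, 2008 and 1627 CPM. In dnFGFR OS mice, replicate 2 had the highest level of Tspo and the lowest choroid plexus sum, 42.0 CPM. The part of choroid plexus content in the Tspo values was not tested.

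**Figure D2:**
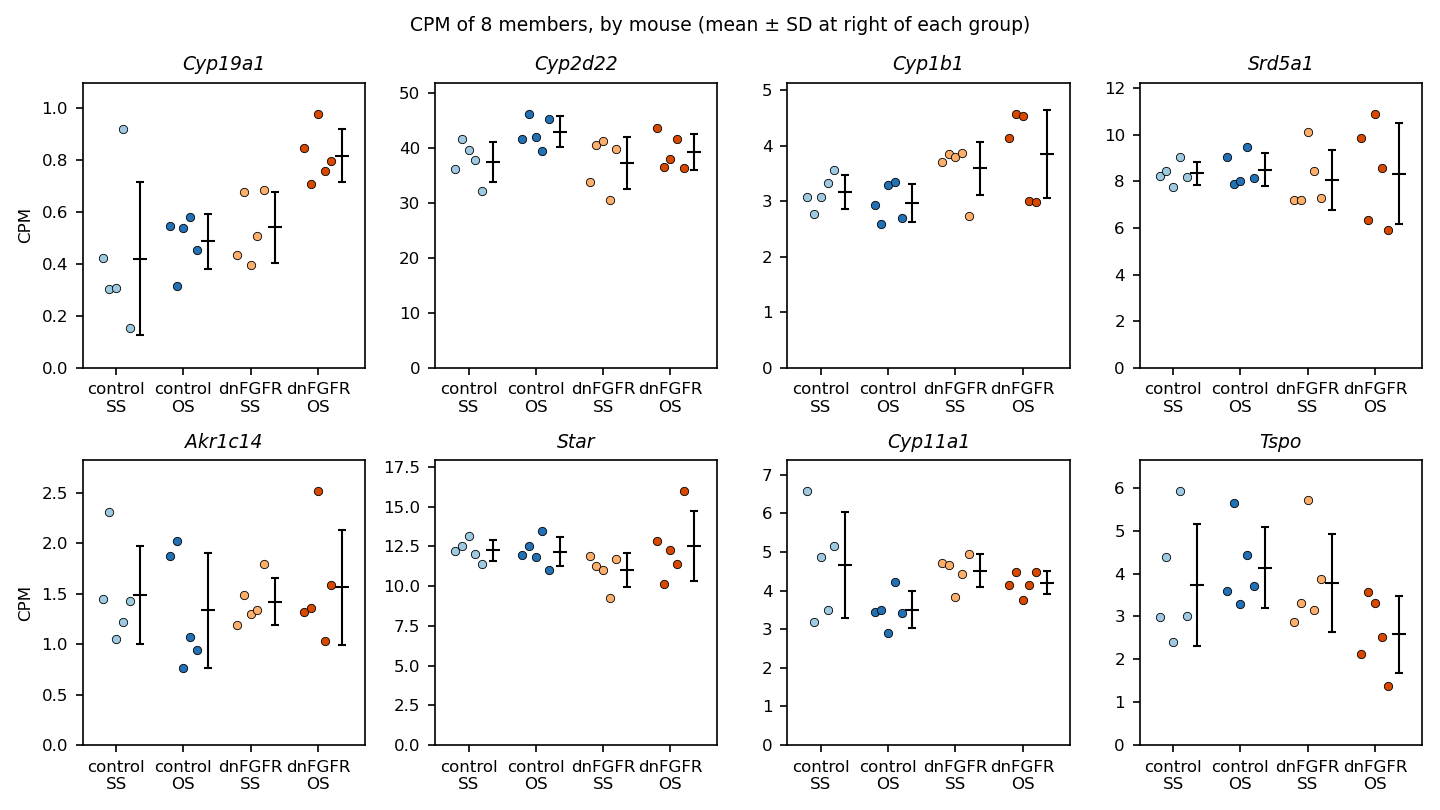
Level in CPM of 8 members in each mouse of the 4 groups, with points for mice and a bar for the mean ± SD (n = 5) to the right of each group. Each axis starts at 0. In the Cyp19a1 panel the 5 dnFGFR OS mice lie at 0.708 CPM or more and the 5 dnFGFR SS mice at 0.685 CPM or less, and the groups overlap in the other panels for this pair.

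Cyp11a1 (chromosome 9, 57998024 to 58027031, plus strand) encodes the side-chain cleavage enzyme that makes pregnenolone from cholesterol. Cyp11a1 had 219, 116, 175, 141 and 202 reads in control SS mice, 114, 123, 102, 139 and 120 in control OS mice, 163, 172, 135, 149 and 188 in dnFGFR SS mice, and 142, 164, 127, 148 and 147 in dnFGFR OS mice. In CPM, 3 control SS mice lay above all control OS mice, and the other two lay within their range.

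The mean level in control mice was 4.66 ± 1.37 CPM with SS and 3.50 ± 0.479 CPM with OS housing (SD, n = 5 each), a fitted log2 difference of -0.41 (95% interval -0.81 to -0.01, adjusted p = 0.677, edgeR). It was -0.15 within those days of sacrifice on which both housings were collected, with 2 SS and 5 OS mice. Without control SS replicate 1, which had the most reads, it was -0.26, and the part of choroid plexus content in this value was not tested. In dnFGFR mice the means were 4.52 and 4.20 CPM, a fitted log2 difference of -0.11 (SE 0.127). A pseudogene, Gm17322, lies within the span of Cyp11a1 in RefSeq, shares 145 exon bases with it in the GENCODE annotation, and was not a row of the table.

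For the reduction of progesterone and testosterone, the RNA of Srd5a1 and Akr1c14 was measured. Srd5a1 (chromosome 13, 69573449 to 69611485, minus strand) encodes a 5-alpha-reductase, which makes dihydroprogesterone and dihydrotestosterone. Srd5a1 had 273, 308, 280, 365 and 321 reads in control SS mice, 299, 276, 283, 311 and 286 in control OS mice, 249, 265, 358, 284 and 276 in dnFGFR SS mice, and 338, 232, 368, 307 and 194 in dnFGFR OS mice. The dnFGFR OS group held both the highest and the lowest count.

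Group means of Srd5a1 lay between 8.05 and 8.51 CPM. The log2 fold change with OS housing was 0.03 (SE 0.0912) in control and 0.05 (SE 0.178) in dnFGFR mice, and that of dnFGFR against control was -0.04 (SE 0.0983). The 95% intervals reached from -0.17 to 0.22 in control and from -0.33 to 0.43 in dnFGFR mice. The value in dnFGFR mice was 0.15 without dnFGFR OS replicate 5 and -0.07 without dnFGFR OS replicate 3, and that in control mice was -0.02 without control OS replicate 4. The choroid plexus sums of these 3 mice were 455.0, 2243 and 1961 CPM, and the part of choroid plexus content was not tested. Of the 150-base windows of the GENCODE transcript of Srd5a1, 13.15% were also found in the predicted gene Gm17108. Whether this affected the reads counted for Srd5a1 was not tested.

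Akr1c14 (chromosome 13, 4048991 to 4090560, plus strand) encodes a 3-alpha-hydroxysteroid dehydrogenase, which converts dihydroprogesterone to allopregnanolone. Akr1c14 had 48, 84, 38, 49 and 56 reads in control SS mice, 62, 71, 27, 35 and 33 in control OS mice, 41, 55, 46, 45 and 68 in dnFGFR SS mice, and 45, 50, 85, 37 and 52 in dnFGFR OS mice. Counts spread over more than the group differences, with group means of 1.33 to 1.56 CPM. The log2 fold change with OS housing was -0.16 (SE 0.303) in control and 0.13 (SE 0.256) in dnFGFR mice, and each of these turned sign without 1 mouse, to 0.05 without control SS replicate 2 and to -0.10 without dnFGFR OS replicate 3. The predicted gene Gm18857 holds 2.80% of the 150-base windows of the Akr1c14 transcript.

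Of the enzymes of estradiol synthesis, the RNA of Cyp19a1 and Hsd17b1 was measured. Cyp19a1 (chromosome 9, 54165937 to 54268164, minus strand) encodes aromatase, which converts testosterone to estradiol and androstenedione to estrone. Cyp19a1 had 14, 11, 11, 37 and 6 reads in control SS mice, 18, 11, 19, 19 and 16 in control OS mice, 15, 25, 14, 17 and 26 in dnFGFR SS mice, and 29, 26, 33, 27 and 26 in dnFGFR OS mice. Control SS replicate 4 had the most reads of all mice, and the other control SS mice had 14 or fewer.

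**Figure D3:**
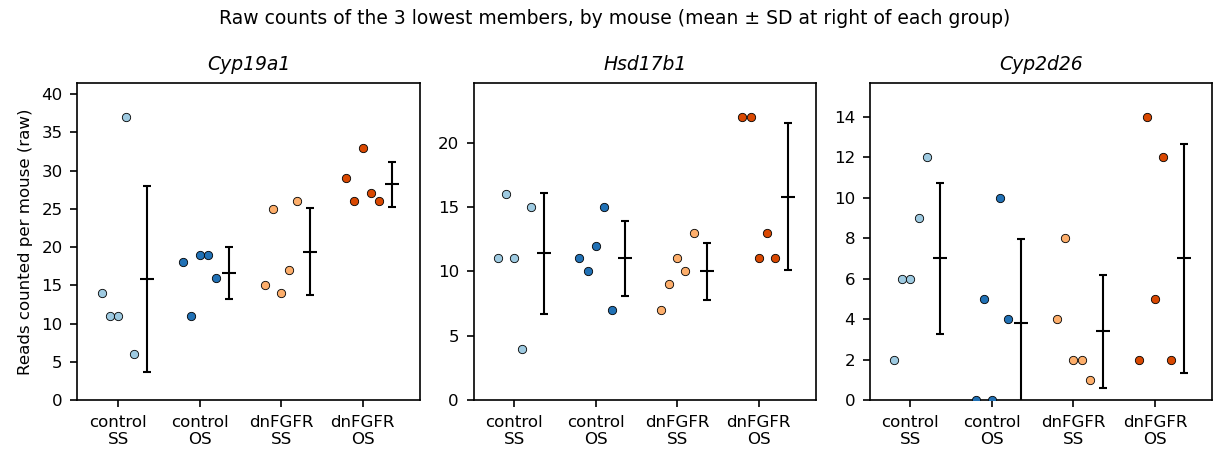
Raw reads counted per mouse for the 3 members with the fewest reads, with points for mice and a bar for the mean ± SD (n = 5) to the right of each group, clipped at 0 for Cyp2d26. For Cyp19a1 the dnFGFR OS mice have 26 to 33 reads, control SS replicate 4 has 37, and no other mouse has more than 26.

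Relative to library size, Cyp19a1 was at 0.847, 0.708, 0.978, 0.756 and 0.794 CPM in dnFGFR OS mice and at 0.435, 0.678, 0.396, 0.506 and 0.685 CPM in dnFGFR SS mice. Each dnFGFR OS mouse thus lay above each dnFGFR SS mouse, though by only 0.708 against 0.685 CPM at the closest, and in raw reads the lowest OS and the highest SS mouse both had 26. Among all 17445 genes examined, 1.42% had groups that did not overlap between OS and SS housing in dnFGFR mice, in either direction. The mean was 0.817 ± 0.104 CPM with OS and 0.540 ± 0.135 CPM with SS housing (SD, n = 5 each), a ratio of 1.51.

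By edgeR's quasi-likelihood test the log2 fold change of Cyp19a1 in dnFGFR mice was 0.59 (SE 0.267, 95% interval 0.01 to 1.17, adjusted p = 0.726), which did not pass. It was 0.50 to 0.69 with 1 mouse left out at a time (0.60 without dnFGFR OS replicate 5), and 0.63 (SE 0.536) within days of sacrifice that held both housings, with 2 SS and 4 OS mice. At the mean count of Cyp19a1, counting error alone gives a coefficient of variation of 22.4% per mouse, beside 39.8% over the 20 mice. Over the 5 dnFGFR OS mice, whose mean level was higher, the coefficient was 12.7%. In bulk tissue, a change in the number of cells that express a gene and a change in its RNA per cell cannot be told apart. The summed level of 7 striatal markers was 2834 to 3548 CPM in dnFGFR SS and 1977 to 3106 CPM in dnFGFR OS mice, that of the POA and hypothalamic list was 108.2 to 126.1 and 94.8 to 137.0 CPM, and the part of dissection in the Cyp19a1 value was not tested.

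In control mice, Cyp19a1 averaged 0.486 ± 0.107 CPM with OS and 0.420 ± 0.295 CPM with SS housing, a fitted log2 difference of 0.20 (SE 0.423, adjusted p = 0.952, edgeR). This value rested on control SS replicate 4, at 0.919 CPM, without which it was 0.72, and it was -0.02 without control SS replicate 5, at 0.153 CPM. The difference between the responses of the genotypes was 0.39 (SE 0.500, 95% interval -0.65 to 1.43, adjusted p = 0.963, edgeR) and turned to -0.13 without control SS replicate 4. A larger response in dnFGFR than in control mice was therefore not detectable.

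Hsd17b1 (chromosome 11, 101077968 to 101081188, plus strand) encodes a 17-beta-hydroxysteroid dehydrogenase that converts estrone to estradiol. Hsd17b1 had 11, 16, 11, 4 and 15 reads in control SS mice, 11, 10, 12, 15 and 7 in control OS mice, 7, 9, 11, 10 and 13 in dnFGFR SS mice, and 22, 22, 11, 13 and 11 in dnFGFR OS mice. The dnFGFR OS replicates 1 and 2 had more reads than every other mouse, and the remaining dnFGFR OS mice had 11 to 13 reads. In CPM, 3 dnFGFR OS mice lay above all dnFGFR SS mice, and the groups overlapped.

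In dnFGFR mice the mean level of Hsd17b1 was 0.454 ± 0.154 CPM with OS and 0.280 CPM with SS housing, a fitted log2 difference of 0.69 (SE 0.342, 95% interval -0.05 to 1.43, adjusted p = 0.729, edgeR). It was 0.54 without dnFGFR OS replicate 1. In control mice the means were 0.323 and 0.311 CPM, a fitted log2 difference of 0.05 (SE 0.406) that was -0.22 within sacrifice dates and -0.18 without control SS replicate 4. The interaction was 0.64 (SE 0.518, adjusted p = 0.963, edgeR).

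For the oxidation of estrogens and other steroids, the RNA of Cyp1b1, Cyp2d22 and Cyp2d26 was measured. Cyp1b1 (chromosome 17, 79706940 to 79715061, minus strand) encodes a P450 that hydroxylates estradiol, mainly to a catechol estrogen. Cyp1b1 had 102, 101, 111, 134 and 140 reads in control SS mice, 97, 91, 116, 110 and 95 in control OS mice, 128, 142, 134, 130 and 104 in dnFGFR SS mice, and 142, 168, 153, 107 and 98 in dnFGFR OS mice. In CPM, 3 of the 5 dnFGFR OS mice and 4 of the 5 dnFGFR SS mice lay above the highest control mouse, which had 3.57 CPM.

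The means of Cyp1b1 were 3.16 CPM in control SS, 2.97 in control OS, 3.59 in dnFGFR SS and 3.85 in dnFGFR OS mice. With OS housing the log2 fold change was -0.09 (SE 0.142) in control and 0.10 (SE 0.175) in dnFGFR mice. The value in control mice was 0.03 within sacrifice dates. That in dnFGFR mice was 0.02 without dnFGFR SS replicate 5, 0.18 without dnFGFR OS replicate 4 and 0.18 without dnFGFR OS replicate 5.

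Cyp2d22 (chromosome 15, 82370527 to 82380260, minus strand) encodes a P450 of the family known for oxidizing drugs, and for 21-hydroxylation of progesterone in rodent brain. Cyp2d22 had 1202, 1519, 1426, 1525 and 1262 reads in control SS mice, 1380, 1623, 1482, 1294 and 1597 in control OS mice, 1170, 1498, 1460, 1027 and 1512 in dnFGFR SS mice, and 1495, 1339, 1283, 1487 and 1192 in dnFGFR OS mice. In CPM, 3 control OS mice lay above all control SS mice, and the groups overlapped.

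The mean in control mice was 43.0 CPM with OS and 37.5 CPM with SS housing, a fitted log2 difference of 0.20 (SE 0.0724, adjusted p = 0.535, edgeR), the lowest adjusted p of a member in this comparison. It was 0.07 within sacrifice dates, and the part of choroid plexus content was not tested. In dnFGFR mice the means were 39.2 and 37.2 CPM, a fitted log2 difference of 0.07 (SE 0.0974) that was 0.01 without dnFGFR SS replicate 4, and the interaction was -0.12 (SE 0.123).

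Cyp2d26 (chromosome 15, 82790107 to 82794452, minus strand), a further member of the Cyp2d cluster, had 2, 6, 6, 9 and 12 reads in control SS mice, 0, 5, 0, 10 and 4 in control OS mice, 4, 8, 2, 2 and 1 in dnFGFR SS mice, and 2, 14, 5, 12 and 2 in dnFGFR OS mice. It was left out of the tests by the filter on low counts, and its groups overlapped in every comparison. Of the 50-base windows of its transcript, 10.5% were also found in other Cyp2d genes, Cyp2d22 among them, and 4.99% of those of Cyp2d22 were found in other Cyp2d genes. No 150-base window of either gene was shared.

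For housing in control mice, 0 of the 9 members tested passed the threshold in edgeR and 2 had an unadjusted p under 0.05, Cyp2d22 with the higher mean in OS and Cyp11a1 with the higher mean in SS mice. Over all genes tested in this comparison, 0.124% passed the adjusted threshold and 7.2% had an unadjusted p under 0.05. The median log2 fold change was 0.03 over the 9 members and 0.002 over all genes.

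For housing in dnFGFR mice, 0 of 9 members passed in edgeR, as did 0% of all genes tested, and 1 member, Cyp19a1, had an unadjusted p under 0.05, against 6.72% of all genes. Of the 9 log2 fold changes, 7 were above 0, with a median of 0.10 (0.004 over all genes). The interaction was passed by 0 of 9 members and 0% of all genes, and 0 members had an unadjusted p under 0.05, against 3.41% of all genes. DESeq2 also gave 0 members in each of these comparisons. In control mice, 0 members had groups that did not overlap between OS and SS housing, where 1.59% of all genes did.

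**Figure D4:**
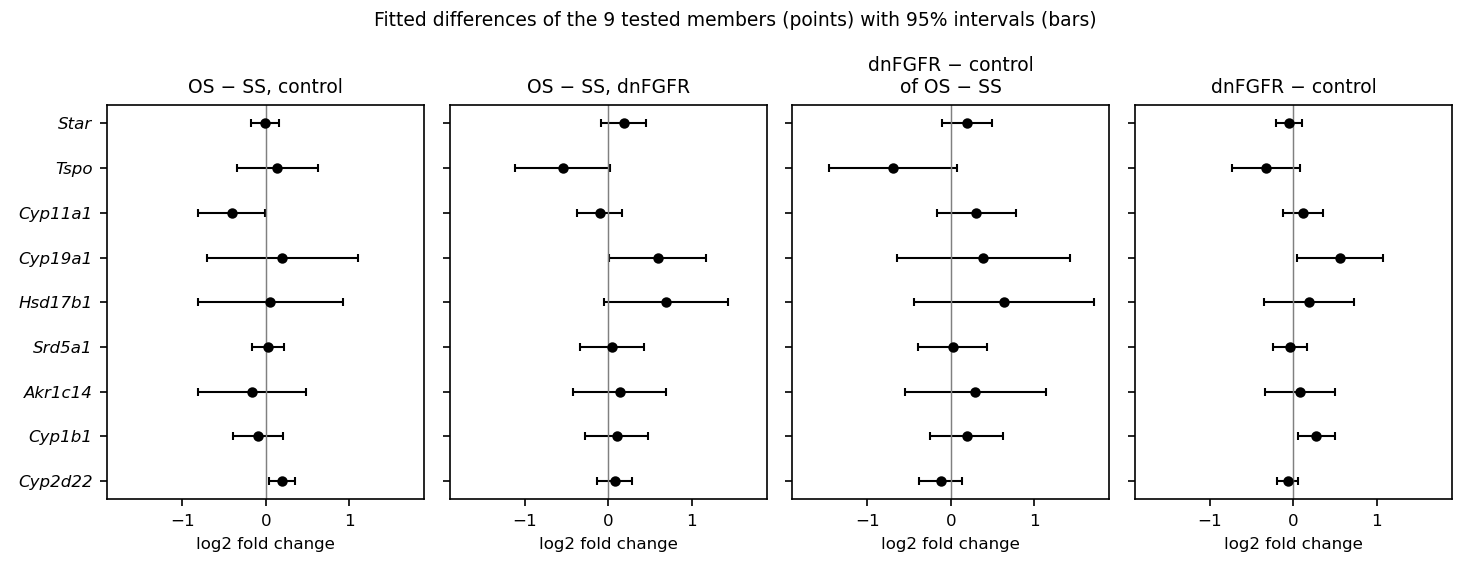
Fitted log2 fold changes of the 9 members tested (points) with 95% intervals (bars) for OS over SS housing in each genotype, for the difference between these responses, and for dnFGFR against control mice over both housings. Intervals for Cyp19a1, Hsd17b1, Akr1c14 and Tspo are the widest.

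The genotypes were compared over all 20 mice with housing as a covariate, and 0 of 9 members passed in edgeR or in DESeq2, against 1.33% of all genes tested in edgeR. Of the members, Cyp19a1 and Cyp1b1 had an unadjusted p under 0.05, against 11.2% of all genes, and both had the higher mean in dnFGFR mice. Cyp19a1 had a fitted log2 difference of 0.56 (SE 0.248, 95% interval 0.04 to 1.07, adjusted p = 0.396, edgeR). Without control SS replicate 4, the control mouse with 37 reads, it was 0.80 (SE 0.209, adjusted p = 0.0872, edgeR), and Cyp19a1 then passed the threshold. That fit called 190 of 17556 genes tested. Leaving out any other single mouse brought none of the 9 members past the threshold. Cyp1b1 had a fitted log2 difference of 0.28 (SE 0.105, 95% interval 0.06 to 0.49, adjusted p = 0.293, edgeR).

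Among OS-housed mice, all 5 dnFGFR mice lay above all 5 control mice for Cyp19a1, by a ratio of means of 1.68, and no other member had groups that did not overlap, where 1.52% of all genes did. Among SS-housed mice, 0 members had groups that did not overlap, where 1.54% of all genes did. Both of these non-overlaps of Cyp19a1 involve the same 5 dnFGFR OS mice. The remaining members had log2 fold changes of dnFGFR against control from -0.33 (Tspo, SE 0.196) to 0.18 (Hsd17b1, SE 0.262). In the same comparison 2 of 7 striatal markers passed the threshold, with a median log2 fold change of -0.23 over that list, and the part of tissue composition in the genotype values was not tested.

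Around the members, 80 other genes of the pathway were listed in 7 groups by role, of which 76 were in the table and 40 passed the filter on low counts. No read in any mouse was counted for 12 of them, among them Cyp11b2 (aldosterone synthase), Cyp1a2 (an estrogen-hydroxylating P450), Sult1e1 (estrogen sulfotransferase) and Akr1c6. Cyp17a1, whose product makes androgens from pregnenolone and progesterone, had 0 to 7 reads per mouse with a median of 0. A count of 0 covers only what this depth could show.

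Other genes of the pathway had reads in every mouse. Hsd17b12, a 17-beta-hydroxysteroid dehydrogenase also active in fatty acid elongation, averaged 69.4 ± 5.87 CPM (SD, n = 20). Por, the reductase that feeds electrons to microsomal P450s including aromatase, averaged 88.1 ± 7.18 CPM. Cyp46a1, the cholesterol 24-hydroxylase of neurons, averaged 205.2 ± 26.4 CPM.

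Of these genes, 0 passed the threshold for housing in either genotype or for the interaction. Over all genes tested, 0.124% passed for housing in control mice, and 0% in dnFGFR mice and for the interaction. For genotype, 1 of the 40 pathway genes that passed the filter was called, where 1.33% of all genes tested were. This gene was Cyp7b1, an oxysterol 7-alpha-hydroxylase that also acts on dehydroepiandrosterone and pregnenolone. Cyp7b1 had 10.2 ± 1.07 CPM in control SS, 10.5 ± 0.896 in control OS, 12.2 ± 1.81 in dnFGFR SS and 13.8 ± 1.14 CPM in dnFGFR OS mice (SD, n = 5 each). It was higher in dnFGFR mice by 0.33 on the log2 scale (SE 0.0730, adjusted p = 0.0260, edgeR). Over the alternatives run for genotype, each mouse left out included, this difference was 0.31 to 0.37. Its adjusted p was 0.00352 to 0.0605 (edgeR or DESeq2). None of these alternatives separated genotype from date of sacrifice, which cannot be told apart. The part of tissue composition in this difference was not tested.

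All 10 genes listed for cholesterol delivery and side-chain cleavage were tested, and 0 were called in the 4 comparisons. Dbi, which encodes a ligand of the mitochondrial benzodiazepine site, had the smallest p of the list in control mice, at 61.6 ± 3.44 CPM with SS and 71.4 ± 13.1 CPM with OS housing (log2 fold change 0.21, SE 0.0944, adjusted p = 0.664, edgeR). In dnFGFR mice it was Stard3, a late endosomal cholesterol transporter, at 34.2 ± 3.12 CPM with SS and 29.2 ± 5.35 CPM with OS housing (log2 fold change -0.23, SE 0.123, adjusted p = 0.759, edgeR).

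Of 14 genes for synthesis of androgens and estrogens, 7 were tested and 0 called. Hsd17b12 had the smallest p for housing in both genotypes, with a fitted log2 difference of 0.10 (SE 0.0591) in control and 0.17 (SE 0.0772, adjusted p = 0.726, edgeR) in dnFGFR mice. Hsd3b3, a 3-beta-hydroxysteroid dehydrogenase, had the smallest p for genotype, with 1.118 and 0.990 CPM in control SS and OS mice and 1.22 and 1.84 CPM in dnFGFR SS and OS mice (log2 fold change 0.51, SE 0.275). Hsd17b7, which acts on estrone and in cholesterol synthesis, had the smallest p for the interaction, at 0.28 (SE 0.162).

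Of the 14 genes of ring reduction and 3-alpha oxidoreduction in the table, 4 passed the filter on low counts over the 20 mice and 0 were called. Akr1c18, a 20-alpha-hydroxysteroid dehydrogenase that inactivates progesterone, averaged 0.0910 CPM in control SS, 0.209 in control OS, 0.270 in dnFGFR SS and 0.356 CPM in dnFGFR OS mice, with 0 to 22 reads per mouse. Its log2 fold change for genotype was 1.09 (SE 0.413, adjusted p = 0.293, edgeR). For housing in control mice the smallest p was that of Hsd17b10, with a fitted log2 difference of 0.04 (SE 0.0760).

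Of the 11 genes of estrogen and androgen oxidation or conjugation in the table, 8 were tested over the 20 mice and 0 called. Sult1a1, a phenol sulfotransferase, had 5.30 ± 1.43 CPM in control SS and 8.69 ± 3.77 CPM in control OS mice, a fitted log2 difference of 0.71 (SE 0.242, adjusted p = 0.474, edgeR), beside which the part of choroid plexus content was not tested. In dnFGFR mice its means were 8.85 CPM with SS and 9.79 CPM with OS housing. Sult2b1, a sulfotransferase of cholesterol and pregnenolone, had the smallest p for genotype, with a fitted log2 difference of 0.43 (SE 0.159, adjusted p = 0.273, edgeR). Hsd17b11 had the smallest p for housing in dnFGFR mice, with a fitted log2 difference of 0.13 (SE 0.0742), and Hsd17b4, which oxidizes estradiol to estrone, had that of the interaction, at 0.15 (SE 0.0843).

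Of the 13 genes of the Cyp1, Cyp2 and Cyp3 families and the AHR pathway, 5 were tested over the 20 mice and 0 called. Cyp1a1, the standard AHR target, had 0 to 10 reads per mouse and was not tested. Ahrr, which encodes the AHR repressor, had 0.742 CPM in control SS, 0.525 in control OS, 0.582 in dnFGFR SS and 0.911 CPM in dnFGFR OS mice, with 13 to 44 reads per mouse. Its interaction was 1.14 (SE 0.360, adjusted p = 0.963, edgeR). Cyp3a13 had the smallest p for genotype, with a fitted log2 difference of -0.42 (SE 0.136, adjusted p = 0.190, edgeR), and for housing in control mice, at 0.38 (SE 0.192).

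None of the 8 other genes of the Cyp2d cluster in the table passed the filter, and each had at most 2 reads in any mouse, so Cyp2d22 was the member of this cluster that the POA libraries chiefly held. All 6 brain sterol hydroxylases were tested. Beside Cyp7b1, the smallest p was that of Cyp39a1 for housing in control mice (log2 fold change 0.37, SE 0.182), of Cyp51, the lanosterol demethylase, for housing in dnFGFR mice (0.14, SE 0.0728), and of Ch25h for the interaction (1.14, SE 0.608, with 1 to 20 reads per mouse).

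Over the 20 mice, the genes whose levels followed each member most closely were found among 15288 genes with a mean of at least 1 CPM, by Pearson's r of log2 CPM. The mice share their group, date and depth, so these values are descriptions. For Tspo they were Aldh2 (r = 0.912), Atf5 (0.869) and Dnajb2 (0.864), and without dnFGFR OS replicate 5 these were 0.867, 0.821 and 0.780. For Star they were Itgb1 (r = 0.874), Gpm6b (0.827) and 1700109H08Rik (0.821), which were 0.803, 0.699 and 0.695 without that mouse.

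For Cyp2d22 the closest were Slc22a5 (r = 0.826), Fam107a (0.783) and Sptssa (0.770), and for Cyp11a1 they were Coq4 (0.792), Chsy3 (0.733) and Cenpk (0.720). Cyp1b1 was followed by Nmbr (r = 0.779), Matn2 (0.756) and Zfp105 (0.748), and Srd5a1 by Mia (0.766), Mtfr1 (0.751) and C1qtnf1 (0.748). Without dnFGFR OS replicate 5 the values for Srd5a1 were 0.750, 0.648 and 0.684. The members with few reads had lower values, with Entpd2 (r = 0.750), Zkscan5 (0.704) and 9530027J09Rik (0.700) for Cyp19a1, Uchl3 (0.703), 1110059E24Rik (0.703) and Eif1a (0.702) for Hsd17b1, and 1110002J07Rik (0.664), Zfp457 (0.656) and Rpia (0.650) for Akr1c14. No member with a mean of at least 1 CPM was among the closest genes named for another. Cyp19a1, Hsd17b1 and Cyp2d26 had means of 0.566, 0.342 and 0.147 CPM. They were outside the genes searched, so whether they followed another member closely was not tested.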

How the data were processed

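Total POA RNA of 20 mice was made into NEBNext Ultra libraries and read as paired 150 bp ends. The authors' reads were aligned with HISAT2 to GRCm38, counted on RefSeq genes with Rsubread 2.0.1 and deposited as raw counts without normalization. Options for strand and for reads with several positions are not given in the sources used here. The table held 20 columns of no sample described for the study, which were not used.

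Counts were tested here with edgeR 4.0.16 (quasi-likelihood test, TMM, filterByExpr, R 4.3.3) and Benjamini-Hochberg adjustment, with an adjusted p under 0.1. Housing was tested within each genotype (10 mice), and interaction and genotype over 20 mice. As alternatives, DESeq2 1.42.0 was run, RLE factors replaced TMM, the filter was dropped or replaced by a minimum of 10 counts per mouse, the threshold was set at 0.05, the groups were fitted jointly, the replicate number entered as a block, trends on GC content and length were removed (with and without that block), only days of sacrifice with both housings were kept, and mice were left out singly. The joint fit and the restriction to those days were run for housing only. Scripts were checked on simulated data. Each mouse was its own library, and p-values measure the spread between mice.

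The members and lists were chosen with earlier results of these data known, and the members include genes that the study discusses for these dnFGFR mice, so their direction there is not independent evidence. Besides the 10 members, the text names in each comparison the pathway genes that passed or else the 1 with the smallest p per list, and the 3 genes most like each member. Cyp11b2, Cyp1a2, Sult1e1, Akr1c6, Cyp17a1, Por, Cyp46a1 and Cyp1a1 were named after their values were seen, and 1 listed gene is not reported here. Precision is set by 32353578 to 39871353 counted reads per mouse, and intervals at this depth are wide for members with few reads.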

Additional observations from a re-analysis of the deposited data

Results flagged for a closer look

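Cyp1b1 in dnFGFR SS replicate 5 lay apart from the other 4 mice of its group, at 2.74 CPM (104 reads) where the group's median was 3.79 CPM. The gap to the nearest mouse was 0.859 of the group's range, above Dixon's critical value for 5 samples. This was 1 of 40 groups of member values examined, and chance flags about 1 in 20 groups. No other member was marked in this way.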

How the results depend on the processing

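The 36 fitted effects of the 9 tested members were recomputed under the alternatives. Of 317 values under settings other than leaving out a mouse, 314 kept their sign and their side of the threshold and 3 changed sign. Within days of sacrifice, the housing effect in control mice was -0.217 for Hsd17b1 and 0.0284 for Cyp1b1, and with GC content and length removed together with the replicate block, that of Akr1c14 in dnFGFR mice was -0.0137. Hsd17b10 in control mice was -0.00548 with GC content and length removed and -0.00482 with the block added. With 1 mouse left out, 519 of 540 values kept both, 20 changed sign and 1 passed the threshold, so that the number of members called for genotype ranged from 0 to 1. The value that passed was that of Cyp19a1 for genotype without control SS replicate 4, which had 37 reads of this gene. The cause of the changes in sign was not tested. Of the 36 effects, 24 never changed sign.

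With 1 mouse left out, the effects that changed sign in control mice ranged from -0.0182 to 0.724 for Cyp19a1, -0.1785 to 0.209 for Hsd17b1, -0.0154 to 0.0614 for Srd5a1, -0.362 to 0.0477 for Akr1c14, -0.0517 to 0.0219 for Star and -0.00692 to 0.0672 for Hsd17b10. In dnFGFR mice they ranged from -0.0684 to 0.148 for Srd5a1 and -0.105 to 0.251 for Akr1c14. For the interaction they ranged from -0.127 to 0.609 for Cyp19a1 and -0.0856 to 0.1315 for Srd5a1, and for genotype from -0.0940 to 0.00769 for Srd5a1 and -0.0364 to 0.196 for Akr1c14.

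Same-numbered mice did not deviate together (correlations of -0.030 to 0.153 in control and -0.062 to 0.259 in dnFGFR mice), so replicate numbers were not taken to pair them. With the replicate block, 0 members were called in each comparison, and the genes called were 23 in control mice (21 without it), 0 in dnFGFR mice, 0 for the interaction and 213 for genotype (232 without it). Over all settings other than leaving out a mouse, genes called ranged from 0 to 157 in control and 0 to 5 in dnFGFR mice, 0 to 1 for the interaction and 165 to 425 for genotype.

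With at least 10 counts required in every mouse, Hsd17b1 was not tested in any of the 4 comparisons, and Cyp19a1 was tested only for housing in dnFGFR mice. Depth limits both genes, and their intervals show how wide a range of effects remained.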
